A study of Homo sapiens with 9 samples.

Results

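The replication-dependent histone genes of the 4 histone clusters were examined in MDA-MB-231 cells kept in medium conditioned by senescent cells. The members were chosen by name and type, as the protein-coding genes whose symbols begin with HIST1H, HIST2H, HIST3H or HIST4H, which took 71 of the 58735 genes in the deposited table. They comprise 6 H1, 17 H2A, 18 H2B, 15 H3 and 15 H4 genes. Only 20 of the 71 reached a mean of 0.5 FPKM over the 9 libraries, the level set for testing, and 25 were at 0 in every library. FPKM are fragments scaled by the length of the gene model and by library size. The models differ in how much of a transcript they hold, so levels compared between genes depend on the annotation. The model of HIST1H2BK has 381 bases and that of HIST1H2AC has 1668, for example.

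Histones package DNA: H2A, H2B, H3 and H4 form the core of the nucleosome, and H1 binds the linker DNA between nucleosomes. The clustered genes lack introns in their main form, are switched on together in S phase when DNA is copied, and mostly give mRNAs that end in a conserved stem-loop in place of a poly(A) tail. SLBP binds this stem-loop, and the U7 snRNP, which contains LSM10 and LSM11, directs the cut just downstream of it. Several of these genes are also known to give longer, polyadenylated transcripts that use a downstream AATAAA signal.

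MDA-MB-231 is an established human breast cancer line of mesenchymal character. In the TIS CM group (therapy-induced senescence) the medium had been taken from cultures of the same line made senescent by nocodazole, a drug that blocks microtubule assembly, given at 100 ng/ml for 72 h. In the Cont CM group the medium came from non-senescent MDA-MB-231 cells, and in the No CM group it was plain medium. There were 3 libraries in each group. The time in these media is 72 h by the labels of the samples but 48 h by the text on the design, which could not be settled. RNA was captured on poly-T beads, so the values describe transcripts that carry a poly(A) tail or otherwise passed that capture, and they are no measure of total histone mRNA.

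Fragments recovered from the FPKM summed to between 32636708 and 39189036 per library, and the 71 members took 4774 to 6375 of them, 0.0132% to 0.0195%. Of 6 genes listed as typical of MDA-MB-231, 5 were above the filter and SPARC was at a mean of 0.10 FPKM. Among the 5 listed as absent or low in this line, ESR1 and PGR were at or near 0, whereas EPCAM averaged 8.54, GATA3 5.61 and CDH1 0.64 FPKM. These line markers also differed between media. CDH1 averaged 0.438 FPKM in TIS CM, 0.299 FPKM in Cont CM and 1.17 FPKM in No CM, and was called lower in both conditioned media than in No CM. In Cont CM against No CM, GATA3 was called lower (5.09 and 6.35 FPKM) and FN1, a typical gene, higher (19.3 and 14.5 FPKM). Of the 14 fibroblast, immune and endothelial markers, PDGFRB (1.29 FPKM), CD14 (4.20 FPKM) and KDR (1.18 FPKM) passed the filter. The 14 markers summed to between 7.50 and 8.65 FPKM per library in TIS CM, between 6.31 and 6.89 FPKM in Cont CM and between 7.07 and 8.92 FPKM in No CM. Against No CM, PDGFRB and CD14 were lower in Cont CM (limma adjusted p = 0.00913 and 0.0174), and PDGFRB was higher in TIS CM than in Cont CM (limma adjusted p = 0.0253), while DCN was at 0. The part of these markers in the histone results was not tested.

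The 3' ends in the annotation are shown first, because the poly-T capture turns on them. In the GENCODE 29 transcripts, whose coordinates match all 71 members of the table, 32 members have at least one transcript that contains the histone stem-loop, 21 have a transcript with AATAAA in its last 40 bases, 20 have both and 38 have neither. These counts are per gene and do not require the signal to lie downstream. In HIST1H4J the AATAAA lies before the stem-loop, and the transcript ends 6 bases after the stem-loop. HIST1H2BN and HIST2H2BF have the stem-loop and the signal in different transcripts only. HIST2H4A has the signal only in transcripts annotated for nonsense-mediated decay. Of the 20 members above the filter, 9 have the stem-loop, 7 the signal, 6 both and 10 neither. Of the 25 members at 0, 9 have the stem-loop and 3 the signal. Of the 38 members with neither, 35 have a model length that is a multiple of 3, as a coding sequence alone would, against 12 of the other 33; the 35 include HIST1H2BK (381 bases) and HIST1H1C (642 bases).

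The stem-loop occurs in 6 forms, and the most common one is in 17 of the 32 genes. The 4 lines below give it for genes described further on, read from the transcripts in hg38, with the 2 arms of the stem in capitals and the loop in lower case. They lie at chr6:26124669-26124684 on the plus strand (HIST1H2AC), chr6:26158587-26158602 on the plus strand (HIST1H2BD), chr6:26123472-26123487 on the minus strand (HIST1H2BC) and chr6:27139654-27139669 on the plus strand (HIST1H4I).
HIST1H2AC: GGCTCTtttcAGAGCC
HIST1H2BD: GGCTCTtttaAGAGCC
HIST1H2BC: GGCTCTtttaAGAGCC
HIST1H4I: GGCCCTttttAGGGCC
HIST1H2BC and HIST1H2BD share a form found in 5 genes, and HIST1H4I has one found in 3 H4 genes.

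What follows the stem-loop differs between models. The last 30 bases of the transcripts HIST1H2AC-202 (chr6:26139073-26139102, plus strand), HIST1H2BD-201 (chr6:26171320-26171349, plus strand), HIST1H2BD-202 (chr6:26158612-26158641, plus strand) and HIST1H2BE-202 (chr6:26184626-26184655, plus strand) are given with the AATAAA signal in capitals.
HIST1H2AC-202: agcctggcatgaggtAATAAAaggtaatgc
HIST1H2BD-201: taattAATAAAatctgcggagaattgtaaa
HIST1H2BD-202: ttcAATAAAtgagttgtaatcatttcattc
HIST1H2BE-202: taaaggaaaaAATAAAaccctcttccctct
HIST1H2AC-202 runs 1114 bases past its stem-loop, HIST1H2BD-202 runs 39 bases past it and HIST1H2BD-201 has no stem-loop. HIST1H2BE has both kinds of end: HIST1H2BE-201 stops 1 base after the stem-loop, and HIST1H2BE-202 goes on for 430 bases. The FPKM are per gene, so they do not separate these transcripts.

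Promoters were compared for the 66 members found in the RefSeq table (GRCh38.p14, 250 bases before to 50 after the start), searching both strands. TATAAA was present in 45 of the 66 (68.2%), against 12.0% of all 27305 promoters in the table. CCAAT was present in 56 (84.8%), against 35.7%. The octamer ATTTGCAT, known in H2B promoters as the site for OCT-family factors, was present in 25 (37.9%), against 1.80%. It was in 14 of 18 H2B against 11 of 48 other members, and those 11 were all H2A genes. Windows of neighbouring H2A and H2B genes can overlap, as those of HIST1H2AC and HIST1H2BC do, so the same match can count for both genes. A match describes the letters and shows no binding, and matches may overlap, as TATAAA does with its reverse complement in HIST1H2BK.

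The promoters of the most abundant member, of the most abundant H1 gene and of the gene called in Cont CM against No CM, HIST1H2BC, are shown with matches to these 3 motifs on either strand in capitals. They lie at chr6:27146806-27147105 (HIST1H2BK), chr6:26056421-26056720 (HIST1H1C) and chr6:26123877-26124176 (HIST1H2BC), all on the minus strand, and are printed 5' to 3'.
HIST1H2BK: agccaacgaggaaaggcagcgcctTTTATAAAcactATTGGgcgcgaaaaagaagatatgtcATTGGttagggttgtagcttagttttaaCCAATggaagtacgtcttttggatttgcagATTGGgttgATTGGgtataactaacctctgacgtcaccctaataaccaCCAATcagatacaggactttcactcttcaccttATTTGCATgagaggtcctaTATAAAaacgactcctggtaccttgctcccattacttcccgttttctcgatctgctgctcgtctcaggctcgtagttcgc
HIST1H1C: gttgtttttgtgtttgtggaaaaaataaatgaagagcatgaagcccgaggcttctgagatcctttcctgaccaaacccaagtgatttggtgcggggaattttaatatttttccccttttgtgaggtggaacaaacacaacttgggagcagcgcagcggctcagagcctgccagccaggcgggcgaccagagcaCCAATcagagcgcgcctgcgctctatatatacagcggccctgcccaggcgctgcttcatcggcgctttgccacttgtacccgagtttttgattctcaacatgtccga
HIST1H2BC: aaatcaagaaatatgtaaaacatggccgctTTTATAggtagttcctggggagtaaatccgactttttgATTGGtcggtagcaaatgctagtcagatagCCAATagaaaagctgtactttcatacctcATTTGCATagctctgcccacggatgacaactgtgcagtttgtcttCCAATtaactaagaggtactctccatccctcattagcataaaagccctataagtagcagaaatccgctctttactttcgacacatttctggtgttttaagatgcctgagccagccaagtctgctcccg
HIST1H2BK and HIST1H2BC hold all 3 motifs, and HIST1H1C holds CCAAT alone. The only TATAAA match of HIST1H2BC is on the opposite strand, in bases that its window shares with the promoter window of HIST1H2AC. Over the 9 libraries HIST1H2BK averaged 164 FPKM, HIST1H1C 55.7 FPKM and HIST1H2BC 1.24 FPKM.

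By summed FPKM, the histone signal in these libraries was mostly from 4 genes. HIST1H2BK, an H2B gene, held 60.2% of the summed FPKM of the 71 members, and between 58.3% and 61.9% in each library. HIST1H1C, which encodes the linker histone H1-2, held 20.4%. With HIST1H2BD and HIST1H2AC they reached 89.9%. By class, H2B held 68.8% of the sum, H1 21.1%, H2A 6.34%, H4 1.90% and H3 1.87%, although nucleosomes use the 4 core histones in equal number. These shares depend on the model lengths. Counted in fragments, without scaling by length, HIST1H2BK had a smaller part. In TIS CM replicate 1, for example, it had 1950 of the 4869 fragments of the members.

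Summed over the 71 members, the level was 243, 241 and 260.2 FPKM in the 3 TIS CM libraries, 337, 233 and 243 FPKM in the Cont CM libraries and 275, 313 and 311 FPKM in the No CM libraries. The means were 248 ± 10.5 FPKM in TIS CM, 271 ± 57.3 FPKM in Cont CM and 299.7 ± 21.2 FPKM in No CM (SD, n = 3 each). All 3 TIS CM libraries were below all 3 No CM libraries, and Cont CM replicate 1 was above every other library. Without that library the Cont CM mean was 238 FPKM, below the TIS CM mean. Without HIST1H2BK the sums were 98.9 ± 1.17 FPKM in TIS CM, 111 ± 21.0 FPKM in Cont CM and 116 ± 7.04 FPKM in No CM (SD, n = 3 each). The H2B sum was 169 ± 10.2 FPKM in TIS CM, 185 ± 44.0 FPKM in Cont CM and 209 ± 17.0 FPKM in No CM, and the H1 sum 51.8 ± 0.936 FPKM in TIS CM, 60.4 ± 10.8 FPKM in Cont CM and 60.8 ± 5.12 FPKM in No CM (SD, n = 3 each). The H3 sum, 5.14 ± 0.371 FPKM in TIS CM, 5.13 ± 0.404 FPKM in Cont CM and 5.02 ± 0.490 FPKM in No CM (SD, n = 3 each), differed between groups by less than the spread within them. In these bulk libraries, fewer cells making a transcript and less of it per cell cannot be told apart.

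**Figure D1:**
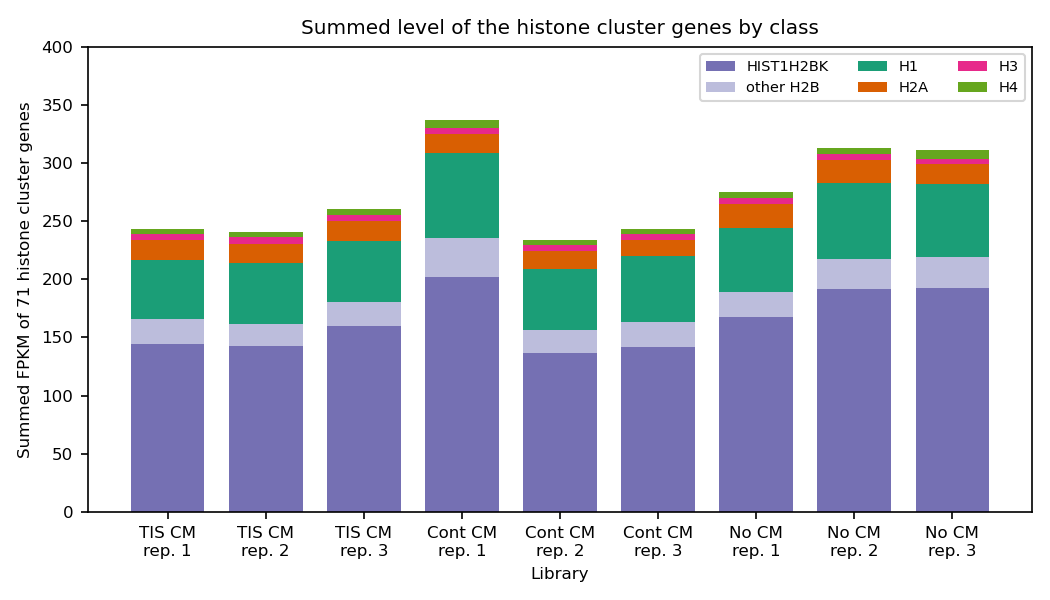
Summed FPKM (vertical axis) of the 71 histone cluster genes in each library (horizontal axis), stacked by class with HIST1H2BK apart from the other H2B genes. HIST1H2BK makes up the largest block in every library, and Cont CM replicate 1 has the highest sum, 337 FPKM.

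Among the H1 genes, HIST1H1C (chr6:26055787-26056428, minus strand) had 49.0, 50.8 and 50.1 FPKM in TIS CM, 70.8, 50.7 and 54.2 FPKM in Cont CM and 52.9, 63.1 and 60.2 FPKM in No CM. Its TIS CM libraries lay below all No CM libraries and overlapped those of Cont CM. It ranked 807 among all genes of the table by mean FPKM. HIST1H1E, another somatic H1 gene, averaged 1.84 ± 0.167 FPKM in TIS CM, 1.81 ± 0.702 FPKM in Cont CM and 2.09 ± 0.256 FPKM in No CM (SD, n = 3 each). HIST1H1T, the testis H1 gene, had 3 fragments in all 9 libraries, and HIST1H1A, HIST1H1B and HIST1H1D had none.

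Among the H2A genes, HIST1H2AC (chr6:26124145-26139116, plus strand) had 10.0, 9.75 and 11.6 FPKM in TIS CM, 12.9, 8.86 and 8.99 FPKM in Cont CM and 12.4, 13.2 and 11.4 FPKM in No CM. The 3 groups overlapped. HIST2H2AC, an H2A gene on chromosome 1, had 3.48, 1.77 and 2.64 FPKM in TIS CM, 0.700, 2.36 and 1.70 FPKM in Cont CM and 4.04, 2.21 and 2.76 FPKM in No CM, with Cont CM replicate 1 the lowest. HIST1H2AH had 0.876, 1.22 and 1.98 FPKM in TIS CM, 0.705, 1.30 and 0.988 FPKM in Cont CM and 0.858, 0.574 and 0.527 FPKM in No CM, so its TIS CM and No CM libraries did not overlap. HIST1H2AG averaged 0.886 ± 0.0780 FPKM in TIS CM, 0.904 ± 0.303 FPKM in Cont CM and 0.987 ± 0.103 FPKM in No CM (SD, n = 3 each).

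Among the H2B genes, HIST1H2BK (chr6:27146418-27146798, minus strand) had 145, 143 and 159.9 FPKM in TIS CM, 202, 136 and 142 FPKM in Cont CM and 168, 192 and 193 FPKM in No CM. It ranked 192 among all genes by mean FPKM, and 20210 fragments were assigned to it over the 9 libraries. Only 25.9% of the 50-base windows of its transcript are unique among GENCODE 29 transcripts, and 61.5% are shared with H2BFS. No source used here says how reads that match several genes were treated, so its level is uncertain. HIST1H2BD had 11.7, 10.6 and 13.9 FPKM in TIS CM, 23.2, 11.6 and 13.3 FPKM in Cont CM and 13.2, 16.5 and 14.5 FPKM in No CM, with 94.6% of its windows unique. It overlaps an antisense gene, AL353759.1, which averaged 0.0818 FPKM. HIST1H2BJ averaged 3.05 ± 0.466 FPKM in TIS CM, 3.89 ± 1.53 FPKM in Cont CM and 3.04 ± 0.503 FPKM in No CM, and HIST1H2BO 1.95 ± 0.568 FPKM in TIS CM, 1.79 ± 0.0695 FPKM in Cont CM and 2.64 ± 1.30 FPKM in No CM (SD, n = 3 each).

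HIST1H2BC, a low H2B gene at chr6:26114873-26123926 on the minus strand, had 1.05, 0.962 and 0.728 FPKM in TIS CM, 0.763, 1.14 and 1.25 FPKM in Cont CM and 1.76, 1.46 and 2.06 FPKM in No CM. Both conditioned-medium groups lay below all 3 No CM libraries. These values rest on 23 to 31 fragments per TIS CM library, 21 to 41 per Cont CM library and 44 to 59 per No CM library. Of its windows, 93.4% are unique and 5.61% are shared with HIST1H2BD.

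The H3 and H4 genes were all low. HIST1H3C averaged 1.82 ± 0.457 FPKM in TIS CM, 2.03 ± 0.336 FPKM in Cont CM and 2.12 ± 0.586 FPKM in No CM (SD, n = 3 each). HIST1H3B had 1.99, 1.95 and 1.73 FPKM in TIS CM, 1.48, 2.10 and 1.12 FPKM in Cont CM and 2.09, 1.49 and 0.992 FPKM in No CM, so the 3 groups overlapped. HIST1H3H had 0.571, 0.783 and 0.917 FPKM in TIS CM, 0.809, 0.970 and 0.639 FPKM in Cont CM and 0.380, 0.404 and 0.848 FPKM in No CM, also with overlap, and HIST2H3D, at 0.317 FPKM, was below the filter. The highest H4 gene, HIST1H4I, averaged 1.73 ± 0.338 FPKM in TIS CM, 1.86 ± 0.762 FPKM in Cont CM and 2.08 ± 0.810 FPKM in No CM (SD, n = 3 each). HIST1H4H averaged 1.19, HIST1H4C 0.828 and HIST1H4K 0.486 FPKM over the 9 libraries. In Cont CM replicate 1, HIST1H4H had 2.00 FPKM, and its other 8 libraries lay between 0.901 and 1.29 FPKM.

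Just above the filter stood HIST1H2AI at 0.572 and HIST1H2AJ at 0.543 FPKM, and just below it HIST1H4K at 0.486 and HIST1H2BE at 0.446 FPKM. HIST1H2AI and HIST1H2AJ share most of their windows with each other, and every window of HIST1H4K is shared with HIST1H4J. Fewer than 50% of windows are unique in 17 members, HIST2H2AA3, HIST2H2AA4, HIST2H4A, HIST2H4B, HIST2H3A and HIST2H3C among them, so their single values are uncertain. The 26 members below the filter with any fragment had means between 0.00152 and 0.486 FPKM. Some of these low values rest on long models: HIST1H2BN had 448 fragments over a model of 5477 bases, and HIST2H2BF had 139 fragments. Others rest on few fragments, such as 11 for HIST1H2BM, 6 for HIST1H2AM and 3 for HIST2H3C.

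Cont CM replicate 1 was the highest of the 9 libraries for 5 of the 20 members above the filter (25%), HIST1H2BK, HIST1H1C, HIST1H2BD, HIST1H2BJ and HIST1H4H. Over all 13912 tested genes it was the highest for 18.9%. By group, the highest library was a TIS CM one for 1 of the 20 members, HIST1H2AH (22.9% of all tested genes), a Cont CM one for 10 (45.0%) and a No CM one for 9 (32.1%). These shares were not tested.

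**Figure D2:**
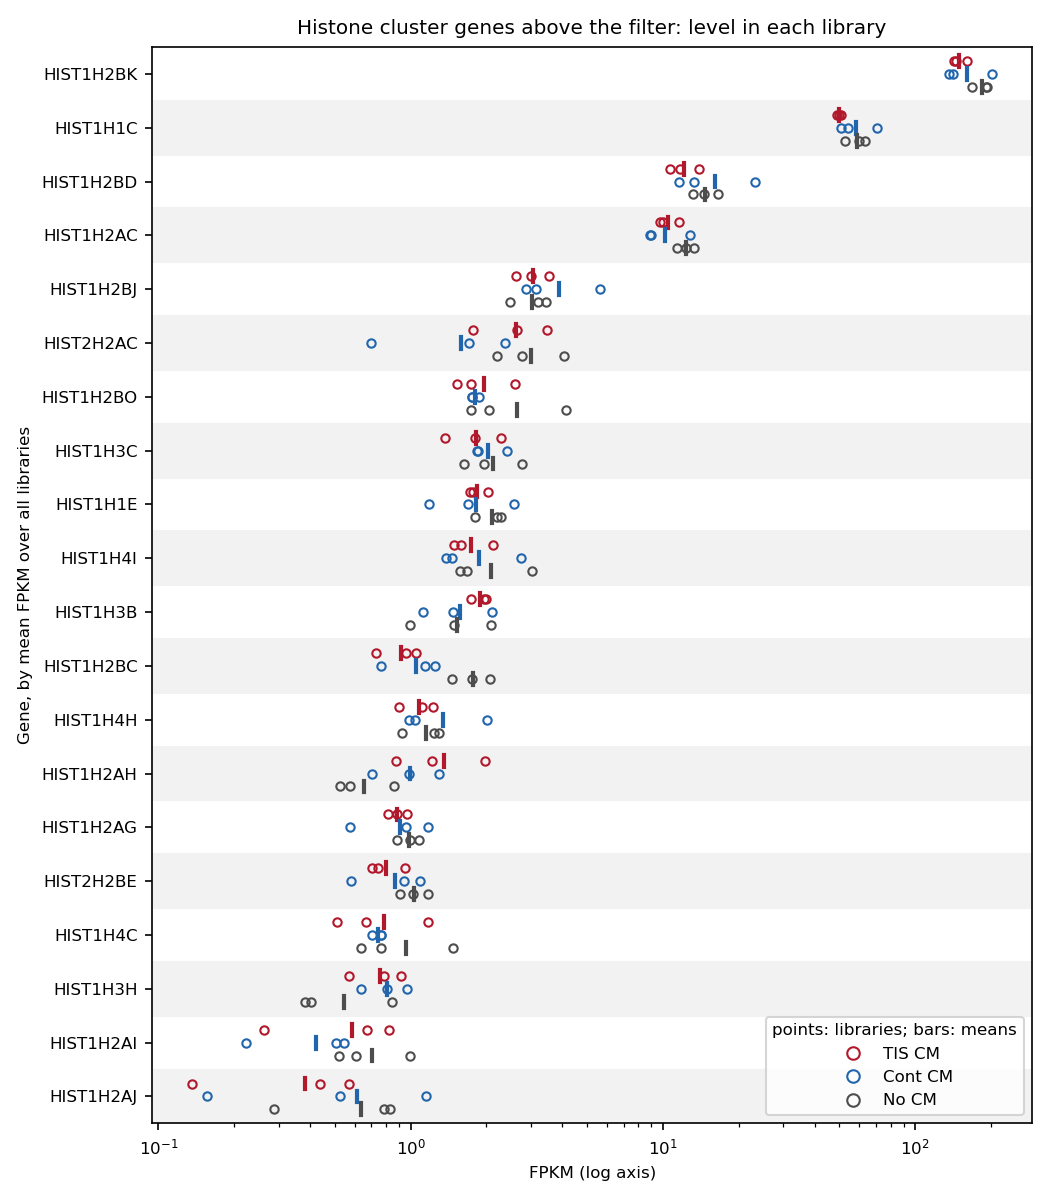
FPKM on a log axis (horizontal) of the 20 histone cluster genes above the filter (vertical), with 1 circle per library and a bar at each group mean. HIST1H2BK and HIST1H1C stand above the others, the 16 members under the top 4 average 0.543 to 3.33 FPKM, and 1 Cont CM circle lies to the right for HIST1H2BD and HIST1H2BJ.

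The HIST1 cluster on chromosome 6 holds 55 members, of which 21 were at 0, the HIST2 group on chromosome 1 holds 12 with 1 at 0, the HIST3 group on chromosome 1 holds 3 that were all at 0, and HIST4H4 on chromosome 12 averaged 0.0458 FPKM. In all, 25 of 71 members (35.2%) were at 0 in every library, against 16.8% of all 19951 protein-coding genes. A count of 0 in 1 library taken alone allows up to 3 fragments, which for these 25 genes is 0.0286 to 0.306 FPKM depending on model length and library. Zeros in every library set a lower limit on the mean level, which was not computed.

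Inside the HIST1 cluster, 18 of the 21 members at 0 fell in 2 unbroken stretches, which were chosen after their values were seen and carry no test. The first, chr6:26188765-26273356 in hg38, spans 84.6 kb from HIST1H4D to HIST1H2BI. It holds 21 annotated genes, 15 of them members, and these 21 genes together had 1 fragment in 9 libraries, in HIST1H2BH. Its members at 0 come from all 5 classes, HIST1H1D, HIST1H2AE, HIST1H2BG, HIST1H3E and HIST1H4E for example. The genes on either side were detected: HIST1H2BE, to the left, had 372 fragments, and HIST1H4H, to the right, had 830. The model of HIST1H2BE starts 11702 bases before its RefSeq start, and 69.5% of its windows are unique. Its count per gene does not show where in the model the fragments lay. Farther out, HFE, which takes part in iron uptake, had 8132 fragments and BTN3A2, a butyrophilin gene, had 10845.

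The second stretch, chr6:27864062-27873510, spans 9.45 kb and wholly contains 5 genes with no fragment, 4 of them members: HIST1H2AL, HIST1H1B, HIST1H3I and HIST1H4L. HIST1H2BN, with 448 fragments, starts before it and reaches 1.74 kb into it, past HIST1H2AL, so the values per gene do not show whether that part of the stretch held fragments. Outside both stretches 33 of 36 HIST1 members had at least 1 fragment, and the exceptions were HIST1H2AA, HIST1H2BA and HIST1H1A. HIST1H2AA and HIST1H2BA are known for expression in testis. Of the 15 members in the first stretch, 13 have at least 95% unique windows, and the exceptions are HIST1H3D and HIST1H2AD; in the second stretch all 4 have at least 95.9%.

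**Figure D3:**
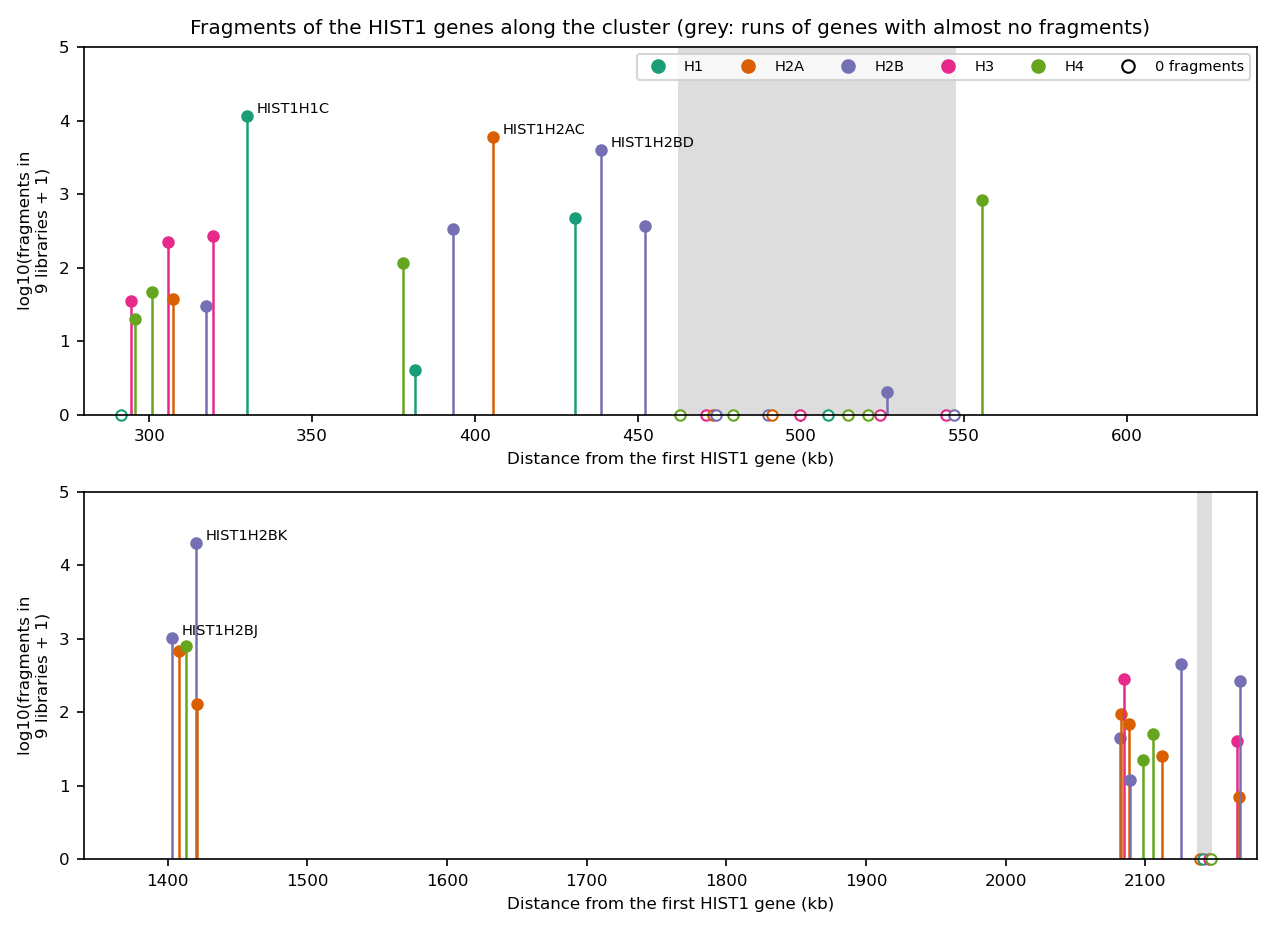
Fragments over all 9 libraries on the scale log10(fragments + 1) (vertical) for 53 of the 55 HIST1 members by distance in kb from the first HIST1 gene (horizontal), in 2 windows, colored by class with open circles at 0. Grey bands mark the stretch of 84.6 kb and the stretch of 9.45 kb, whose genes together had 1 fragment apart from HIST1H2BN, which reaches into the second, whereas members on either side of the first band had 372 and 830 fragments.

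Many H2A and H2B genes stand head to head and share a promoter region. There were 11 such pairs of members with starts at most 1000 bases apart, both tested in 4 pairs and both at 0 in 4 pairs. HIST1H2BK and HIST1H2AH are 330 bases apart, and their levels were 164 and 1.00 FPKM over the 9 libraries. The HIST1H2BK promoter printed above covers most of that gap, so it faces both genes. HIST1H2BC and HIST1H2AC are 218 bases apart, with 1.24 and 11.01 FPKM, so there the H2A gene was 8.86 times as high. HIST1H2BJ was 3.59 times as high as HIST1H2AG and HIST2H2AC 2.67 times as high as HIST2H2BE.

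The first comparison sets medium of senescent, nocodazole-treated cells against medium of non-senescent cells. In this design, senescence and drug treatment of the cells that gave the medium cannot be told apart. Between TIS CM and Cont CM no histone cluster gene passed the test: 0 of 20 were called, and 0 had an unadjusted p under 0.05. Calls used limma on log2(FPKM + 0.5) with an adjusted p under 0.05 over all 13912 tested genes, and 4.48% of those were called (2.90% higher and 1.57% lower in TIS CM), with 23.4% at an unadjusted p under 0.05. The median log2 fold change was -0.05 over the 20 members and 0.00 over all tested genes, and 11 of the 20 were below 0. Precision was low for these genes: the standard error was 0.11 to 0.35 with a median of 0.20, against a median of 0.07 over all tested genes.

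The widest differences between TIS CM and Cont CM were in HIST2H2AC, with a log2 fold change of 0.64 ± 0.33 (SE; limma adjusted p = 0.279), and HIST1H2BD, with -0.34 ± 0.22 (SE; limma adjusted p = 0.398). HIST1H1C had -0.21 ± 0.11 (SE; limma adjusted p = 0.293). HIST1H2BC had -0.13 ± 0.15 (SE; limma adjusted p = 0.662). No member had groups that did not overlap, against 15.0% of tested genes higher and 13.6% lower. Without Cont CM replicate 1 the median over the members was 0.05 and without Cont CM replicate 3 it was -0.15, and still none was called.

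The second comparison asks what medium of non-senescent cells does relative to plain medium. Cont CM against No CM gave 1 called member of 20, HIST1H2BC, lower in Cont CM, while 16.3% of all tested genes were called (7.77% higher and 8.56% lower). HIST1H2BC averaged 1.05 ± 0.256 FPKM in Cont CM and 1.76 ± 0.298 FPKM in No CM (SD, n = 3 each), a log2 fold change of -0.55 ± 0.15 (SE; limma adjusted p = 0.0393). It was also the only member whose groups did not overlap, where 16.8% of tested genes were lower without overlap. The call rests on few fragments. It held in 10 of the 23 alternatives, was lost in 12, and in 1 the gene was not tested, with limma adjusted p between 0.0156 and 0.135. It was lost with voom (0.0737), with only the 2 groups compared (0.0732), with the replicate block (0.0817; 0.0898 with the length trend also removed), with a minimum mean of 0.1 FPKM (0.0508) or no filter (0.11), and without No CM replicate 1 (0.0942) or 3 (0.135), Cont CM replicate 1 (0.0723) or 2 (0.0662), or TIS CM replicate 1 (0.0529) or 2 (0.0600).

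The other members gave no call in Cont CM against No CM with all libraries. HIST2H2AC had a log2 fold change of -0.80 ± 0.33 (SE; limma adjusted p = 0.131), HIST1H2AC of -0.27 ± 0.13 (SE; limma adjusted p = 0.193) and HIST1H2BK of -0.22 ± 0.13 (SE; limma adjusted p = 0.302). HIST1H2BC and HIST2H2AC had an unadjusted p under 0.05, as did 31.3% of all tested genes. The median was -0.12 over the members and -0.00 over all tested genes, and 14 of 20 members were below 0, against 50.2% of tested genes. The calls changed without Cont CM replicate 1: HIST1H2BK (-0.40, limma adjusted p = 0.00724) and HIST1H2AC (-0.44, limma adjusted p = 0.00814) were called lower in Cont CM, and HIST1H2BC was not. Over the alternatives the adjusted p ranged from 0.00724 to 0.625 for HIST1H2BK and from 0.00814 to 0.431 for HIST1H2AC.

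Between TIS CM and No CM no member was called, where 0.855% of all tested genes were (0.403% higher and 0.453% lower). HIST1H2BC averaged 0.913 ± 0.167 FPKM in TIS CM and 1.76 ± 0.298 FPKM in No CM (SD, n = 3 each), with a log2 fold change of -0.68 ± 0.15 (SE; limma adjusted p = 0.0946), and HIST1H2AH had 0.66 ± 0.23 (SE; limma adjusted p = 0.241). These 2 had an unadjusted p under 0.05, as did 13.6% of tested genes. HIST1H2BK had -0.30 ± 0.13 (SE; limma adjusted p = 0.369) and HIST1H1C -0.23 ± 0.11 (SE; limma adjusted p = 0.422). HIST1H2BC, HIST1H2BK and HIST1H1C were lower without overlap (11.6% of tested genes) and HIST1H2AH was higher without overlap (12.7%).

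The median of the 20 members in TIS CM against No CM was -0.17 and that of all tested genes 0.00, with 16 of 20 members below 0 against 48.8% of tested genes. HIST1H2BC passed the test here in 3 settings: without Cont CM replicate 1 (limma adjusted p = 0.0305), with protein-coding genes alone (0.0337) and with only the 2 groups compared (0.0486), over a range of 0.0305 to 0.285. The 3 comparisons share libraries, so they are not independent of each other. The 20 members share these libraries too, so the counts of members below 0 carry no test. Over the libraries, the median deviation of the tested members from their group means had a pooled SD of 0.084 on the log2 scale.

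**Figure D4:**
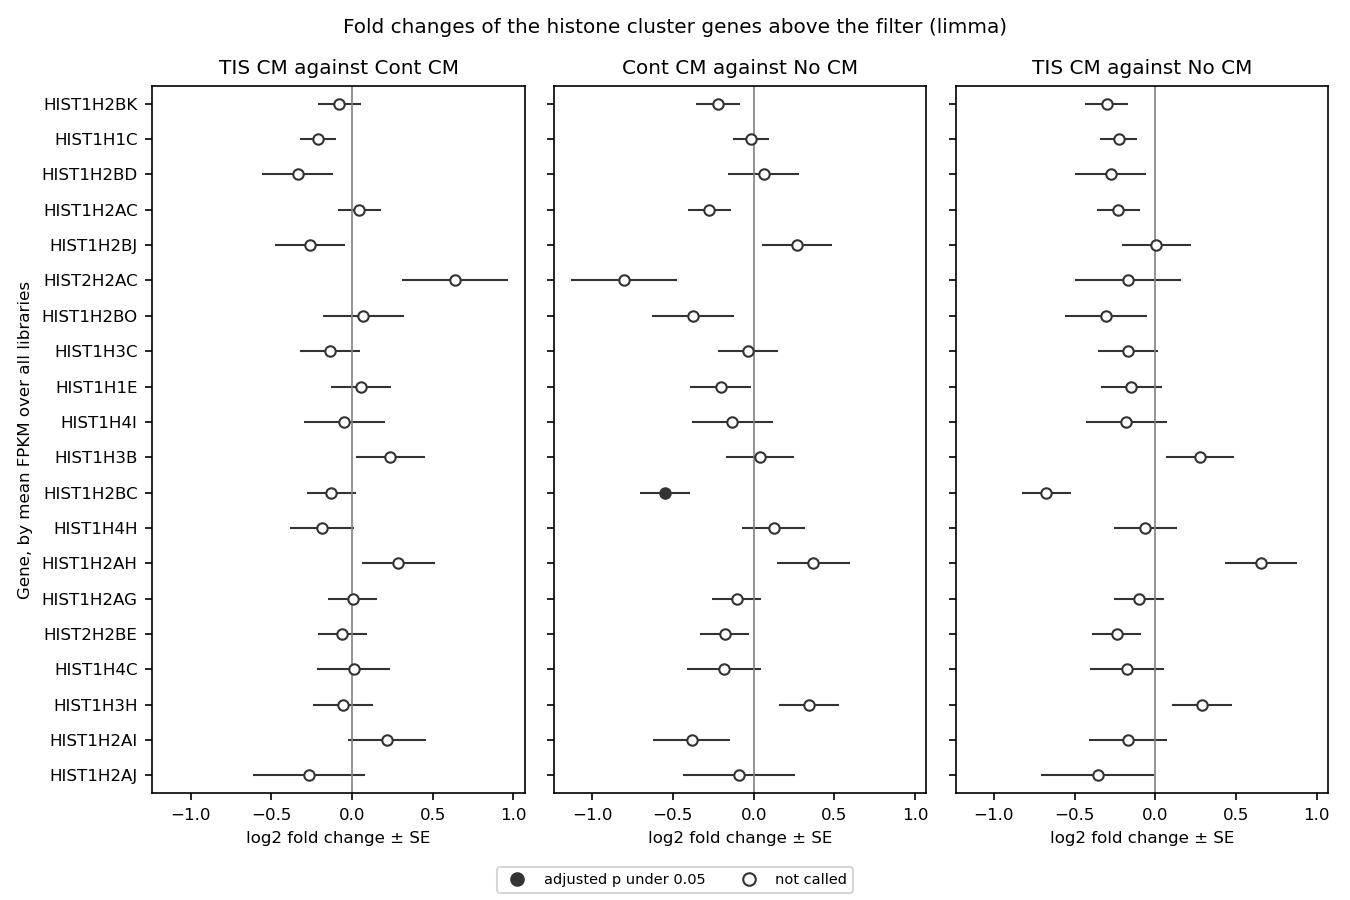
Log2 fold change with its standard error (horizontal) of the 20 histone cluster genes above the filter (vertical) in the 3 comparisons, with filled circles for an adjusted p under 0.05. HIST1H2BC in Cont CM against No CM, at -0.55, is the only filled circle.

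The histone genes listed as replication-independent variants, which lie outside the rule for members, gave a larger signal in this poly-T capture. Their summed mean was 799 FPKM over 19 genes, against 273 FPKM for the 71 cluster genes, and 10 of the 19 were tested. The cluster genes mostly give mRNAs without a poly(A) tail, so these sums do not compare total mRNA. Stem-loops were looked for in the cluster genes only, so whether H2AFX or other listed genes depend on replication was not tested. H2AFZ averaged 191, H2AFX 179, H1F0 127 and H3F3B 69.6 FPKM. H1FX, a linker histone variant, had 109, 106 and 103 FPKM in TIS CM and 83.6, 77.1 and 88.4 FPKM in Cont CM, and was called higher in TIS CM (log2 fold change 0.35 ± 0.05 SE, limma adjusted p = 0.0123). It was the 1 of 10 called there, where 4.48% of all tested genes were called (2.9% higher).

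In Cont CM against No CM, 4 of the 10 variants were called, all lower, where 8.56% of all tested genes were called lower; over the alternatives the count ranged from 0 to 4. H2AFX, which is phosphorylated at DNA breaks, averaged 157 ± 19.2 FPKM in Cont CM and 194 ± 9.63 FPKM in No CM (SD, n = 3 each; log2 fold change -0.31, limma adjusted p = 0.0288). H1FX (-0.24, limma adjusted p = 0.0134), H3F3A, an H3.3 gene (-0.22, limma adjusted p = 0.0202), and H2AFY, which encodes macroH2A (-0.17, limma adjusted p = 0.0389), were the others. For TIS CM against No CM the count was 0 of 10.

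Of 23 tested genes for the 3' end processing and turnover of histone mRNA, 1 was called in TIS CM against Cont CM and 4 in Cont CM against No CM, where 4.48% and 16.3% of all tested genes were called, so these counts are near the background. SNRPB, a protein shared by several snRNPs, was higher in TIS CM than in Cont CM (log2 fold change 0.19, limma adjusted p = 0.0416). In Cont CM against No CM, ERI1, a nuclease that trims histone mRNA ends (0.21, limma adjusted p = 0.0232), ZNF473, which binds the U7 snRNP (0.22, limma adjusted p = 0.0351), and CSTF2 (0.20, limma adjusted p = 0.0447) were higher, and SYMPK, a scaffold of the cleavage complex (-0.16, limma adjusted p = 0.0466), was lower. SLBP averaged 73.6 ± 2.27 FPKM in TIS CM, 71.04 ± 3.61 FPKM in Cont CM and 76.9 ± 1.17 FPKM in No CM (SD, n = 3 each) and was not called. LSM10 averaged 22.5 and LSM11 2.01 FPKM over the 9 libraries, neither of them called. For TIS CM against No CM the count was 0 of 23.

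Of 12 tested genes for histone gene transcription, 1 was called, CDK2, the S phase kinase, higher in Cont CM against No CM (log2 fold change 0.16, limma adjusted p = 0.0482), where 16.3% of all tested genes were called. Without Cont CM replicate 1 the count was 3. NPAT, the coactivator of the clusters and a target of that kinase, averaged 6.30 ± 0.04 FPKM in TIS CM, 7.17 ± 0.84 FPKM in Cont CM and 6.74 ± 0.17 FPKM in No CM (SD, n = 3 each), with no call. Of 22 tested histone chaperones, 3 were called in Cont CM against No CM, near the share of 16.3% over all tested genes. ASF1B (-0.26, limma adjusted p = 0.00979) and HJURP, which loads CENPA (-0.22, limma adjusted p = 0.0412), were lower, and DAXX, an H3.3 chaperone (0.16, limma adjusted p = 0.0169), was higher.

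Of 40 tested S phase and DNA replication genes, 2 were called in TIS CM against Cont CM and 8 in Cont CM against No CM, the 2 higher and the 8 lower. Over all tested genes 4.48% and 16.3% were called in these comparisons (2.9% higher in the first and 8.56% lower in the second), and the counts moved between 0 and 6 and between 4 and 11 over the alternatives. TK1, the thymidine kinase of S phase, had 109, 103 and 109 FPKM in TIS CM, 86.4, 83.3 and 91.6 FPKM in Cont CM and 106, 104 and 113 FPKM in No CM, with Cont CM below both other groups. Its log2 fold change was 0.30 in TIS CM against Cont CM (limma adjusted p = 0.0180) and -0.30 in Cont CM against No CM (limma adjusted p = 0.00416). CCNA2, cyclin A2, had 0.23 (limma adjusted p = 0.0346) and -0.26 (limma adjusted p = 0.00829) in the same comparisons, which share the Cont CM libraries. LIG1, a DNA ligase (-0.25, limma adjusted p = 0.00579), and E2F2, an S phase transcription factor (-0.50, limma adjusted p = 0.00662), were also lower in Cont CM. None of the 40 was called between TIS CM and No CM.

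The 14 genes for poly(A) processing of long mRNAs gave 1 call in TIS CM against Cont CM, CPSF4 (0.23, limma adjusted p = 0.0404), and 2 in Cont CM against No CM, CPSF1 (-0.17, limma adjusted p = 0.0299) and CPSF4 (-0.17, limma adjusted p = 0.0497), where 4.48% and 16.3% of all tested genes were called. Without Cont CM replicate 1 the S phase counts were 4 in TIS CM against Cont CM and 10 in Cont CM against No CM.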

How the data were processed

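RNA of 9 MDA-MB-231 libraries, 3 groups of 3, was captured on poly-T beads and sequenced, per the labels' protocols. The authors deposited FPKM per gene, with gene length, position and biotype. The submitters' processing notes name hg38, HISAT2 2.0.5, fastp, DESeq2 1.20.0 and featureCounts 1.5.0-p3, without settings. Strand use and the treatment of multi-mapped reads are not given in these sources. FPKM times length was a whole multiple of a library step for 100% of values (within 0.01), so fragments were recovered; 1 fragment on 1 kb was worth 0.0255 to 0.0303 FPKM. Recovered library sizes were 99.28% to 101.34% of the summed fragments.

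Genes with a mean of at least 0.5 FPKM (13912, of which 20 members) were fitted on log2(FPKM + 0.5), which understates changes of low genes, with limma 3.58.1 in R 4.3.3 (all libraries, group means, trend, moderated variances). P-values were adjusted by Benjamini-Hochberg over all tested genes. Nothing in the labels says that replicates came from separate cultures, so p-values reflect the spread between libraries alone, which may be technical. Named are called members, the 4 highest members per class, the 2 members on either side of the filter, up to 4 called genes per other list, direction and comparison, and SLBP, NPAT, ZNF473, LSM10 and LSM11. The members and lists were chosen with earlier results of these data known. Coordinates are those of the table, equal to GENCODE 29. Uniqueness is the share of 50-base windows found in no other gene's transcript; promoters are RefSeq's. The limma script was tested on simulated data. Alternatives were other pseudocounts, filters and scalings, protein-coding genes alone, voom on recovered fragments, 2-group fits, a replicate block, removal of length trends, each library left out and, chosen after seeing the data, removal of GC and length trends. Figures were drawn with matplotlib 3.10.9.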

Additional observations from a re-analysis of the deposited data

Results flagged for a closer look

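The protein-coding rule leaves out 19 histone pseudogenes, of which 2 passed 0.5 FPKM, outside the comparisons above. HIST2H3DP1 averaged 1.5003 FPKM over the 9 libraries (0.920 to 1.82 FPKM), from 15 to 26 fragments per library. HIST2H2BA averaged 1.13 FPKM (0.802 to 1.61 FPKM), from 20 to 44 fragments per library. Both were above the limit that a count of 0 allows. Sequence is shared with members: 57.7% of the windows of HIST2H3D occur in HIST2H3DP1, and 12.1% of those of HIST2H2BF in HIST2H2BA. The unique share of the pseudogenes' own windows was not measured, so how uncertain the levels of these 2 pseudogenes are is not known.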

How the results depend on the processing

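No called value changed direction under the 23 alternatives. No member was called in TIS CM against Cont CM under any of them. For the single members followed, 272 combinations of gene, comparison and alternative were compared with the main fit. The call was unchanged in 255 of them, lost in 12 and gained in 5. In Cont CM against No CM the called genes of the lists ranged from 0 to 4 for histone variants, 0 to 4 for 3' end processing, 0 to 3 for histone transcription, 1 to 4 for chaperones, 4 to 11 for S phase and 0 to 2 for poly(A) processing, and in TIS CM against Cont CM from 0 to 3, 0 to 1, 0 to 1, 0 to 1, 0 to 6 and 0 to 2. In TIS CM against No CM these 6 lists had 0 called under every alternative.

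The call of HIST1H2BC in Cont CM against No CM was lost, giving 0 members lower, with a minimum mean of 0.1 FPKM, with no filter, with voom (limma adjusted p = 0.0508, 0.11 and 0.0737), with only the 2 groups compared (0.0732), and with a minimum mean of 2 FPKM, where the gene was not tested. The count ranged from 0 to 2 when libraries were left out. In TIS CM against No CM the count lower was 1 with protein-coding genes only and with only the 2 groups compared, and 0 to 1 when libraries were left out. The median log2 fold change in Cont CM against No CM was -0.22 with a minimum mean of 2 FPKM and -0.22 with voom. In TIS CM against Cont CM it was -0.15 to 0.048 when libraries were left out.

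The number of all genes called in TIS CM against Cont CM was 413 with a minimum mean of 0.1 FPKM, 207 with no filter, 995 with protein-coding genes only, 1085 with voom, 33 with only the 2 groups compared, 161 with GC and length trends removed, and 11 to 1084 when libraries were left out. In Cont CM against No CM it was 1242 with only the 2 groups compared and 1075 to 2775 when libraries were left out. In TIS CM against No CM it was 46 with no filter, 210 with protein-coding genes only, 245 with voom, 331 with only the 2 groups compared, and 9 to 364 when libraries were left out. The cause was not tested.

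Same-numbered libraries had correlations of deviations from group means between -0.19 and 0.08. These values show no pairing by number, but with 3 libraries per group they cannot exclude it. With the replicate block the calls were 126 in TIS CM against Cont CM, 1461 in Cont CM against No CM and 4 in TIS CM against No CM; with the replicate block and length trends removed they were 42, 1491 and 4. HIST1H2BC in Cont CM against No CM had limma adjusted p = 0.0817 and 0.0898 under these blocks, which gave 0 members lower.

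Depth limits the low members: 127 fragments in all for HIST1H2AH, 335 for HIST1H2BC, and 25 members at 0. For these, each 0 taken alone allows up to 3 fragments in that library.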
